A study of Homo sapiens with 12 samples.

Results

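The response of control cells to Cisplatin was examined in 6 of the 12 RNA sequencing libraries of the series, 3 from untreated shControl cells and 3 from shControl cells treated with Cisplatin. All cells were A549, a line derived from a human lung adenocarcinoma, and all had been infected with a lentivirus carrying an shRNA and kept in puromycin at 1 µg/ml for 4 days before use. The shControl cells carried the control shRNA, and the other 6 libraries came from cells carrying an shRNA against RNF113A, again untreated or treated. The labels give the Cisplatin treatment as 25 µg/ml for 20 h in full growth medium, while other assays of the study give the same figure in µM, so the unit of the dose is in doubt. The study's methods call the 3 libraries of a group biological replicates, and no source says which cultures they came from.

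Cisplatin reacts with the bases of DNA and joins neighbouring or opposing bases into crosslinks that stop DNA and RNA polymerases. Crosslinks are removed by nucleotide excision repair and by the Fanconi and homologous recombination pathways, and stalled polymerases activate the ATR and ATM kinases and, through them, the transcription factor p53. A549 cells respond to damage through the p53 pathway, and in the absence of stress they also keep the antioxidant factor NRF2 active, so the targets of both can be read in their transcripts.

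The depth of the 6 libraries ranged from 44841726 to 56071514 read pairs, of which 37808692 to 45721152 were assigned to a gene on its own strand. Levels are given as CPM, the reads of a gene scaled to an equal total of assigned reads per library with edgeR's TMM factors. They are not divided by gene length, so they compare libraries and not genes. All 12 of 12 A549 and epithelial markers listed reached a mean of 1 CPM, whereas the 5 endothelial and the 5 squamous markers did not. Of the 6 fibroblast markers COL1A1 did, at a mean of 12.6 CPM, and of the 6 mature alveolar and airway markers AGER did, at 1.84 CPM. The summed level of the fibroblast markers was 6.14 to 36.4 CPM without and 7.26 to 15.1 CPM with Cisplatin. The leukocyte markers CD14 and ITGAM were above 1 CPM, and the summed level of the 6 leukocyte markers was 5.31 to 6.55 CPM without and 13.4 to 18.8 CPM with Cisplatin, and whether other cells contributed was not tested. The 100 most abundant genes of a library held 20.5% to 21.7% of its assigned reads in untreated cells and 16.4% to 17.5% after Cisplatin. Replicate 2 stood apart in both groups. A chi-square comparison of counts over genes, divided by its degrees of freedom, gave 88 and 96 between untreated replicate 2 and the others and 11.9 between replicates 1 and 3, and with Cisplatin it gave 63.5 and 63.7 against 8.17.

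Cisplatin changed the transcriptome widely and in both directions. Of 15352 genes tested, 3037 (19.8%) differed at least 2-fold with an adjusted p under 0.05 (edgeR's quasi-likelihood test, Benjamini-Hochberg adjustment), 1406 (9.16%) of them higher and 1631 (10.6%) lower after Cisplatin. At the adjusted p alone, 8450 genes (55%) differed, of which 4298 (28% of those tested) rose and 4152 (27%) fell. Counts of list members that rose or fell, where not marked as called, are at the adjusted p alone and stand beside these shares. For 8614 genes (56.1%) the 3 treated libraries lay all above or all below the 3 untreated ones. In bulk samples, fewer cells that make a transcript and less of it per cell cannot be told apart. Changes of at least 8-fold were seen for 243 called genes that were higher and 232 that were lower. The median log2 fold change of all genes was −0.005 with TMM scaling and 0.09 with scaling to library size alone, under which 53.9% in place of 46.3% of the called genes were higher. Without both replicate 2 libraries, 3172 genes were called (20.5% of those tested), and 2767 were called in both analyses.

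Several of the genes that rose most had been almost silent in untreated cells. SLC52A1, which encodes a riboflavin transporter (hg19 chr17:4935895-4955304), was counted at 0.138, 0.408 and 0.371 CPM in the untreated libraries and at 36.9, 59.4 and 48.1 CPM with Cisplatin. Its log2 fold change was 7.27 (SE 0.26, adjusted p = 1.3e-09). ARC, an immediate early gene of neurons, went from 0.332, 0.229 and 0.292 CPM to 13, 31.9 and 14.4 CPM, with replicate 2 highest among the treated libraries (log2 fold change 6.11, SE 0.39, adjusted p = 9.4e-08). PVRL4, which encodes the adhesion molecule nectin-4 (chr1:161040785-161059389), went from 0.304, 0.51 and 0.663 CPM to 33.6, 28.8 and 37.4 CPM (log2 fold change 6.06, SE 0.21). The rest of the 15 largest rises had log2 fold changes from 4.34 to 5.98. They included the NMDA receptor subunit gene GRIN2C, the guidance molecule RGMA, the semaphorin receptor PLXNB3, the transcription factors HES2 and GRHL3, the growth factor PGF, the receptor for platelet-activating factor PTAFR, the adhesion gene CEACAM1 and WDR63, together with the p53 targets BTG2, CDKN1A and TP53INP1.

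The genes that fell most were long ones. LARGE, which encodes a glycosyltransferase acting on dystroglycan (chr22:33558212-34318829), stood at 40.1, 39.5 and 33.8 CPM in untreated cells and at 0.395, 0.192 and 0.468 CPM after Cisplatin. The level was 106-fold lower and the log2 fold change was −6.72 (SE 0.27, adjusted p = 2.7e-09). GPC6, a glypican gene of 1180 kb (chr13:93879095-95059655), went from 34.2, 49.3 and 31.4 CPM to 0.184, 0.433 and 0.575 CPM (log2 fold change −6.54, SE 0.32, adjusted p = 1.2e-08). EXOC4, a subunit of the exocyst that tethers secretory vesicles (chr7:132937829-133751342), went from 91.6, 77.2 and 79.5 CPM to 3.81, 2.09 and 4.26 CPM (log2 fold change −4.61, SE 0.24). The other 12 of the 15 largest falls lay between log2 fold changes of −5.11 and −3.76 and were PTPRG, TTC28, GMDS, SHANK2, ELMO1, LTBP1, NTRK3, SLC39A11, SMYD3, TLN2, STX8 and FRAS1. All 15 spanned at least 300 kb from their first to their last annotated base. Among the 15 largest rises, 1 spanned at least 100 kb and 2 spanned less than 10 kb. Of the 13446 genes tested whose span was known, 2628 were under 10 kb, 2177 were 100 to 300 kb and 521 were 300 kb and over.

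In amounts of reads, the largest gains and losses involved the abundant transcripts of A549 cells. CDKN1A, encoding the cyclin-dependent kinase inhibitor p21, gained 1889 CPM and the aldehyde dehydrogenase gene ALDH3A1 gained 1755 CPM, from 1103, 444 and 1090 CPM to 3208, 1668 and 3026 CPM. In both groups replicate 2 was the lowest for ALDH3A1, and the groups did not overlap. The giant scaffold genes AHNAK and AHNAK2 gained 611 and 516 CPM, RETSAT, a retinol saturase, gained 561 CPM, and MDM2, TP53I3 and TNFRSF10B gained 503 to 1133 CPM. ALDH1A1, an aldehyde dehydrogenase listed as an A549 marker, lost most, from 8409, 9030 and 7743 CPM to 3769, 4489 and 4110 CPM (log2 fold change −1.03, SE 0.098, adjusted p = 2.8e-06). The keratin genes KRT18 and KRT8, whose products form the filaments of simple epithelia, went from means of 5077 ± 1479 and 5505 ± 1685 CPM to 1776 ± 335 and 2583 ± 582 CPM (SD, n = 3). Both were lowest in replicate 2 of each group. AKR1C2, CPLX2, ANXA2, SCD, which encodes a fatty acid desaturase, and the tubulin gene TUBB changed by means of −2413 to −1461 CPM. Reads of AKR1C2 can be confused with those of its near-identical neighbours in the AKR1C cluster.

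Targets of p53 rose nearly without exception. Of 40 tested, 38 were called higher, 39 rose at the adjusted p, and TNFRSF10C, at under 1 CPM in every library, did not pass. The median log2 fold change of the 40 was 2.19, beside −0.005 for all genes. BTG2, an antiproliferative gene, stood at 11.9, 9.17 and 13.9 CPM in untreated cells and at 268, 204 and 279 CPM after Cisplatin (log2 fold change 4.42, SE 0.16, adjusted p = 1.2e-09). CDKN1A went from 91.6, 70.5 and 125 CPM to 1858, 2199 and 1898 CPM, which was 20.7-fold (log2 fold change 4.37, SE 0.18, adjusted p = 2.8e-09). TP53INP1, which promotes p53 phosphorylation and autophagy, went from 8.59, 11 and 8.64 CPM to 196, 169 and 207 CPM (log2 fold change 4.34, SE 0.13). BTG2, CDKN1A and TP53INP1 were named among the largest rises, for which groups that did not overlap were required. Their lack of overlap is thus a condition of the choice and no separate result. MDM2, the ubiquitin ligase that degrades p53, rose 10.9-fold, from 116, 105 and 123 CPM to 1252, 1125 and 1366 CPM. TP53I3, a quinone oxidoreductase, rose 11.3-fold, from 80.7, 84.6 and 80.8 CPM to 933, 954 and 899 CPM. FUCA1 rose less than 2-fold (log2 fold change 0.77, SE 0.14, adjusted p = 0.00054), so the span of the rises within the list ran from 0.77 to 4.42.

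**Figure D1:**
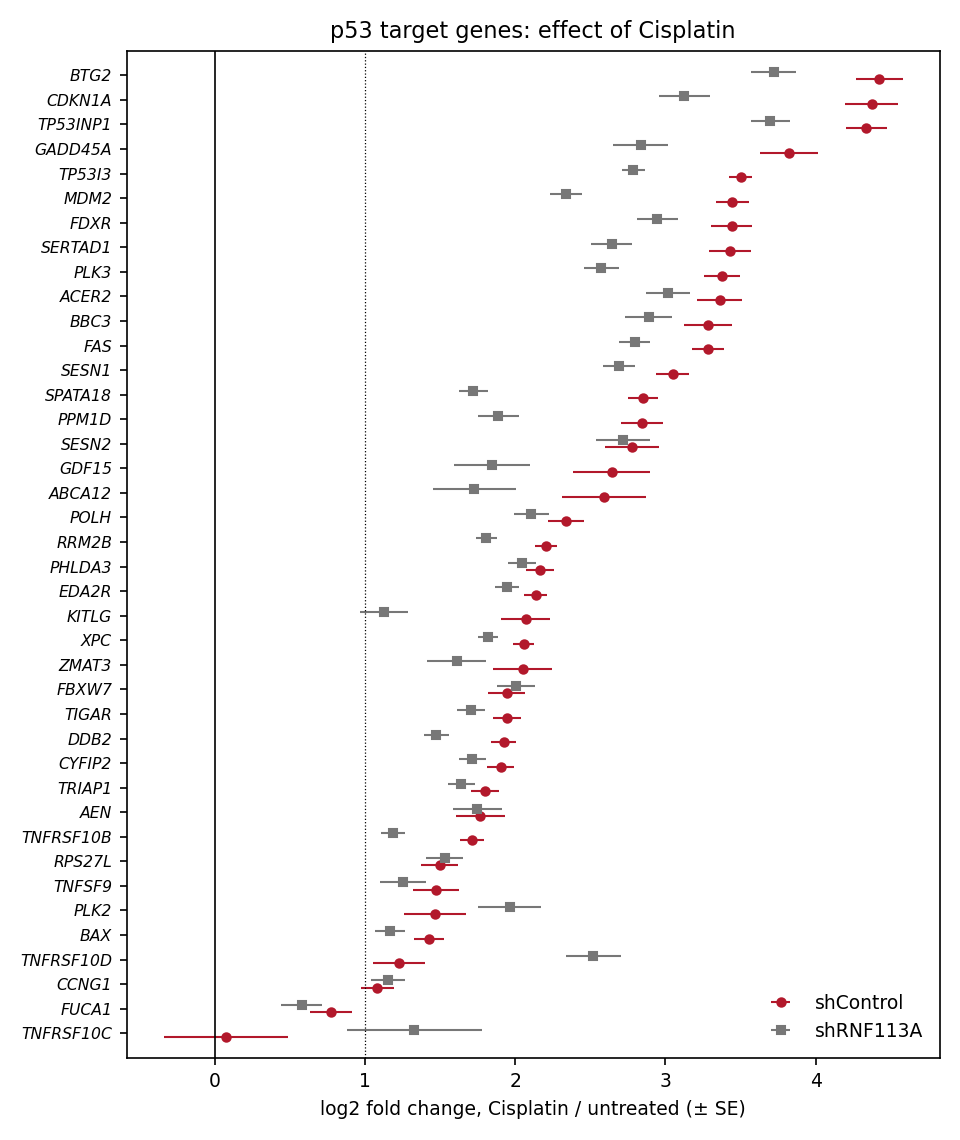
Log2 fold change of each of the 40 p53 target genes tested, Cisplatin against untreated, in shControl cells (circles) and in cells with the shRNA against RNF113A (squares), with bars of 1 standard error. The dotted line marks a 2-fold rise, and 38 of the circles lie beyond it, from CCNG1 at 1.08 to BTG2 at 4.42.

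Genes that regulate p53 behaved less uniformly, with 6 of 13 rising and 2 falling at the adjusted p, beside 28% and 27% of all genes tested. PPM1D, the phosphatase that resets the damage kinases and is itself a p53 target, went from 21.9, 20.5 and 21.9 CPM to 127, 194 and 140 CPM (log2 fold change 2.84, SE 0.14, adjusted p = 1.1e-08). PML, which organises nuclear bodies, rose 2.72-fold. HIPK2, a kinase that phosphorylates p53, fell, from 120, 62.1 and 109 CPM to 57.5, 25.9 and 53.5 CPM (log2 fold change −1.09, SE 0.28, adjusted p = 0.00512), and the p53 ubiquitin ligase gene RFWD2 fell 1.68-fold.

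Genes of cell death moved in both directions, beside 28% of all genes tested that rose and 27% that fell at the adjusted p. Among the death receptors and their adaptors, 7 of 13 rose and 1 fell at the adjusted p (median 0.50). FAS, the receptor for the FAS ligand, went from 14.7, 12.5 and 16.8 CPM to 143, 132 and 153 CPM, with a gap of more than 100 CPM between the groups (log2 fold change 3.28, SE 0.11, adjusted p = 9.8e-10). The TRAIL receptor genes TNFRSF10B and TNFRSF10A rose 3.27-fold and 3.97-fold, and TNFRSF1A, the main TNF receptor, fell 1.81-fold. In the BCL2 family, 7 of 16 rose and 3 fell. BBC3, which encodes the killer protein PUMA, went from 7.16, 5.99 and 9.57 CPM to 82.3, 65.3 and 73.8 CPM (log2 fold change 3.28, SE 0.16). The killer gene BIK and the survival gene BCL2A1, both near 1 CPM or below in untreated cells, rose 7.61-fold and 7.7-fold, and the survival gene BCL2 fell 2.4-fold, from 5.39, 4.59 and 5.12 CPM to 2.47, 1.95 and 1.87 CPM. The median of the family was 0.03, close to that of all genes. Of 16 caspases and their partners, 10 rose and 1 fell. APAF1, the core of the apoptosome, rose 3.06-fold, CASP10 3.05-fold and the inhibitor gene BIRC3 3.6-fold, and BIRC5, an inhibitor gene that is also expressed in mitosis, fell 2.07-fold.

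Immediate early genes, which respond to signals without new protein synthesis, were higher after Cisplatin, several of them most of all in replicate 2. Of 24 tested, 16 rose and 1 fell at the adjusted p, 13 of them called higher (median 1.07). Without both replicate 2 libraries 9 were called higher and the median was 0.65. EGR1, a zinc finger transcription factor, stood at 0.967, 2.52 and 1.33 CPM untreated and at 3.13, 66.2 and 4.43 CPM with Cisplatin. A single treated library thus carried most of its increase, and its log2 fold change of 3.93 (SE 1.0, adjusted p = 0.00516) became 1.73 (adjusted p = 0.00079) without both replicate 2 libraries. FOSB, an AP-1 subunit gene, had the same profile, with 0.525, 0.255 and 0.849 CPM against 3.79, 34 and 4.89 CPM. ARC was described above, and EGR2, at 1 to 3 reads per untreated library, reached 2.63, 4.28 and 2.92 CPM. KLF10 was the member that fell, by 0.71 on the log2 scale. The signal feedback genes DUSP14, SPRY1 and DUSP6, which restrain the MAP kinases, rose 4.6-fold, 3.66-fold and 2.83-fold, 9 of 18 such genes rose and ETV5 fell. Of the EGF receptor family and its ligands, the ligand gene HBEGF rose from 3.23, 3.92 and 3.95 CPM to 24.1, 45.2 and 24.6 CPM (log2 fold change 3.08, SE 0.23). The ligand genes TGFA and AREG rose as well, and the receptor gene ERBB3 and the receptor inhibitor genes LRIG1 and ERRFI1 fell, by 1.44, 1.74 and 0.54 on the log2 scale.

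NF-kB genes rose as a group, 17 of 19 at the adjusted p (9 called, median 0.76). TNFAIP3, the deubiquitinase A20 that limits the pathway, went from 6.88, 5.71 and 5.67 CPM to 31.9, 51.9 and 39.8 CPM, without overlap (log2 fold change 2.76, SE 0.16, adjusted p = 3.7e-08). TRAF1 rose 7.74-fold, from 1.46, 1.3 and 1.56 CPM to 10.3, 10.1 and 13.1 CPM. ICAM1, an adhesion molecule for leukocytes, was under 0.25 CPM in each untreated library and at 3.24, 2.98 and 3.09 CPM after Cisplatin. Of 17 chemokine and cytokine genes tested, 9 rose and CXCL5 fell. The chemokine gene CXCL8 went from 3.1, 4.38 and 3.82 CPM to 15.3, 75.5 and 22.1 CPM, again highest in replicate 2 (log2 fold change 3.32, SE 0.49, and 2.44 without both replicate 2 libraries). GDF15, a stress cytokine and p53 target, went from 83.1, 59.6 and 105 CPM to 413, 746 and 383 CPM.

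Genes of innate immunity and of antigen presentation were also higher. All 5 APOBEC3 cytidine deaminase genes tested rose at the adjusted p (median 2.04). APOBEC3C went from 44, 43.5 and 43.6 CPM to 188, 172 and 178 CPM, with little spread in either group (log2 fold change 2.04, SE 0.071, adjusted p = 1.1e-09). APOBEC3B, the member that acts in the nucleus, rose 1.68-fold and APOBEC3F 1.46-fold, and members of this family share sequence, so reads could be split between them. Of 27 interferon-stimulated genes tested, 15 rose and 2 fell (median 0.30). ISG15, a ubiquitin-like modifier, went from 2.65, 2.32 and 3.55 CPM to 23.5, 16.2 and 18.1 CPM, and IRF1 from 17.6, 11.7 and 18.3 CPM to 76.4, 78.2 and 78.7 CPM. CMPK2, a nucleotide kinase, fell 2.63-fold. In the HLA class I pathway 12 of 15 rose and 2 fell, led by TAP1, the peptide transporter (44.4, 61.4 and 47.6 CPM against 225, 254 and 208 CPM), by the peptidase gene ERAP2 and by the immunoproteasome gene PSMB8.

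Stress response genes were counted in 3 lists, beside 28% of all genes tested that rose and 27% that fell at the adjusted p. In the integrated stress response, 11 of 24 genes rose and 7 fell (median 0.12). ATF3, a repressor that several stress kinases induce, went from 11.2, 5.2 and 8.19 CPM to 100, 191 and 104 CPM (log2 fold change 4.01, SE 0.30, adjusted p = 3.2e-07), and DDIT3, the pro-apoptotic factor CHOP, from 11.8, 8.94 and 11.4 CPM to 118, 205 and 134 CPM (log2 fold change 3.83, SE 0.24). SESN2, also a p53 target, rose 6.85-fold. The amino acid transporter genes SLC7A5 and SLC7A11 and the receptor gene VLDLR fell, by 1.10, 0.69 and 0.64 on the log2 scale. For ATF4, the central factor of this response, the log2 fold change was −0.23 (SE 0.095, adjusted p = 0.0581), which did not pass. In the unfolded protein response of the endoplasmic reticulum, 15 of 20 genes fell and 2 rose (median −0.45). HSP90B1, a chaperone of that compartment, went from 1040, 1184 and 916 CPM to 526, 573 and 540 CPM, and the sensor gene ATF6 and the disulphide isomerase gene PDIA6 fell 2.11-fold and 1.76-fold. ERN1, the sensor IRE1, and EDEM1 were the members that rose. Among 19 heat shock proteins, 6 rose and 3 fell, with HSPB8 2.41-fold higher and HSPA8, the constitutive HSP70, 1.89-fold lower.

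DNA repair genes were counted by pathway, beside 28% of all genes tested that rose and 27% that fell. No test compared the pathways. Of 25 nucleotide excision repair genes, 11 rose and 4 fell, and the 2 damage sensors of the pathway led. XPC went from 54.2, 52.6 and 51.1 CPM to 211, 223 and 223 CPM (log2 fold change 2.06, SE 0.069, adjusted p = 1e-09), and DDB2 from 99.3, 86.3 and 98.3 CPM to 333, 396 and 347 CPM (log2 fold change 1.92, SE 0.083). Both are also p53 targets. ERCC6, which recognises stalled RNA polymerase, rose 2.27-fold from about 5 CPM, and RAD23B, RPA2 and RPA3 fell 1.37-fold, 1.36-fold and 1.33-fold. In translesion synthesis, 4 of 12 rose and 2 fell. POLH, the polymerase that copies past Cisplatin adducts, went from 32.4, 22.4 and 30.4 CPM to 148, 133 and 149 CPM (log2 fold change 2.34, SE 0.12), REV3L rose 2.34-fold, and PRIMPOL and RAD18 fell 1.8-fold and 1.31-fold.

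Fanconi and homologous recombination genes fell more often than they rose, 14 against 4 of 31 (median −0.19), although changes were mostly below 2-fold. RAD51B, a recombination gene of 910 kb, was the exception in size, with 8.57, 8.43 and 8.43 CPM against 0.447, 0.337 and 0.511 CPM (log2 fold change −4.28, SE 0.19, adjusted p = 5.3e-09). FANCC, a gene of 219 kb for a subunit of the Fanconi core complex, fell 2.97-fold and XRCC2 1.69-fold. RAD51C, FAN1, a nuclease for crosslinks, and BRCA2 rose 1.63-fold, 1.51-fold and 1.31-fold. Of 18 damage kinases and mediators, 3 rose and 8 fell: ATRIP, the partner of ATR, reached 2-fold higher, ATR was 1.35-fold higher, and CHEK1, the kinase that ATR activates, fell from 78.9, 72.4 and 74 CPM to 39.2, 46 and 38.3 CPM. H2AFX, the histone variant that marks breaks, fell 1.96-fold.

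Genes of the cell cycle fell. Among 42 genes of the G1/S transition and DNA replication, 30 fell and 3 rose at the adjusted p, and 13 were called lower (median −0.63; 18 called lower without both replicate 2 libraries). MCM6, a subunit of the replicative helicase, went from 307, 177 and 257 CPM to 55.1, 46.8 and 52.4 CPM (log2 fold change −2.26, SE 0.16, adjusted p = 2e-07), and MCM5 and the transcription factor gene E2F2 fell 3.37-fold and 3.58-fold. The helicase subunit gene GINS4, the sliding clamp gene PCNA and RRM1 were the 3 that rose, by log2 fold changes of 0.95, 0.63 and 0.19. Among 40 genes of G2/M and mitosis, 34 fell and KIF20A rose (median −0.65). PLK1, a kinase needed for mitotic entry, went from 272, 219 and 277 CPM to 95, 81 and 79.3 CPM (log2 fold change −1.59, SE 0.10, adjusted p = 1e-07), and the centromere histone gene CENPA and the spindle gene PRC1 fell 2.74-fold and 2.29-fold. Among 16 cyclins, kinases and inhibitors of G1, CDKN1A and E2F3 rose and 6 fell, among them the inhibitor gene CDKN2C (32.6, 29 and 32.6 CPM against 11.7, 9.72 and 11.5 CPM), SKP2 and RBL1.

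Replication-dependent histone genes fell furthest as a list. Of 73 listed, 35 had enough reads to be tested, 23 fell at the adjusted p and 21 were called lower. The median of the 35 was −1.61 (log2). HIST1H2AC went from 3.95, 4.71 and 5.2 CPM to 0.684, 0.89 and 0.575 CPM (log2 fold change −2.69, SE 0.19, adjusted p = 2.5e-07), and HIST1H2BD from 7.32, 11.2 and 10.1 CPM to 2.74, 2.81 and 2.45 CPM. The groups were separate for both. Most transcripts of these genes end without a poly(A) tail and the libraries were made from mRNA by an mRNA kit, so only a part of them is captured, and whether that part changed was not tested. In cells with the shRNA against RNF113A the median of the same 35 genes was 0.59. The effect of Cisplatin differed between the arms at adjusted p under 0.05 for 11 of them, beside 4.25% of all genes tested.

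Targets of NRF2 fell: 24 of 28 at the adjusted p, while KEAP1 rose 1.22-fold (median −0.76). AKR1C2 fell from 4311, 2903 and 3868 CPM to 1482, 998 and 1364 CPM, the malic enzyme gene ME1 fell 2.39-fold and PIR, an iron-binding nuclear protein, 2.37-fold. NFE2L2, which encodes NRF2, had a log2 fold change of 0.04 (SE 0.11, adjusted p = 0.77). Of 27 genes of glycolysis and the hypoxia response, 14 fell and 5 rose (median −0.43), with EGLN3 and PDK1 1.85-fold and 1.67-fold lower and ADM 1.92-fold higher. CA9, a carbonic anhydrase, was called lower with overlapping groups, since untreated replicate 2 held 11.2 CPM and all other libraries 0.979 to 2.14 CPM. Among 23 cholesterol synthesis genes, 13 fell and HSD17B7 rose (median −0.51), with INSIG1 and LSS 2.33-fold and 2.07-fold lower. Cytosolic ribosomal protein genes moved little: 71 of 77 did not pass, 3 rose and 3 fell, and the median was −0.05. Beside the 27% of all genes that fell and the 28% that rose, 8 of 31 proteasome subunits fell and 4 rose, and 21 of 75 respiratory chain subunits fell and 4 rose, with SDHA, at 176, 189 and 170 CPM against 367, 368 and 345 CPM, 2.02-fold higher. Of 23 autophagy genes 8 rose and 4 fell (median 0.07), ATG2A most upward by 0.81 and ATG7 most downward by 1.12 on the log2 scale. Of 16 genes of ferroptosis and polyamine metabolism 4 rose and 5 fell (median 0.03).

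Transport and adhesion genes were split, beside 28% of all genes tested that rose and 27% that fell at the adjusted p. Of 16 copper and drug transporters tested, 7 fell and 2 rose (median −0.35). The efflux pump genes ABCC4 and ABCC1 fell 2.83-fold and 2.13-fold, and SLC22A3, an organic cation transporter, fell from 96.9, 61.5 and 86.9 CPM to 19.5, 16.6 and 24.1 CPM (log2 fold change −2.02, SE 0.16, adjusted p = 6.2e-07), while ABCC5 and SLC31A2 rose 2.16-fold and 2.24-fold. Of 10 metallothionein and metal transport genes tested, the zinc exporter gene SLC30A1 rose 3.25-fold and MT2A 1.69-fold, MT1F fell 2.17-fold and the copper pump gene ATP7A fell 1.42-fold. Of 13 keratin genes tested 6 fell and 2 rose (median −0.31), and KRT15, at 1.16, 0.994 and 1.09 CPM against 3.95, 1.9 and 4 CPM, was one that rose. The adhesion genes CDH1 and FN1 fell 3.12-fold and 2.09-fold, and of the 23 epithelial and mesenchymal genes tested 6 rose and 4 fell. Among 14 genes of YAP and TEAD, 9 rose and 3 fell (median 0.69). AJUBA, a LIM protein, went from 112, 53.4 and 111 CPM to 317, 197 and 314 CPM, and AXL, a receptor tyrosine kinase, rose 2.69-fold. Of 19 BMP, SMAD and ID genes, 8 fell and 5 rose: the receptor genes TGFBR1 and TGFBR2 moved in opposite directions, 2.75-fold higher and 2.51-fold lower, and BMP4 fell 2.86-fold.

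Zinc finger genes of chromosome 19 rose in large numbers by small amounts. Of 242 listed by symbol and position, 164 were tested, 104 rose and 4 fell at the adjusted p (median 0.59), and 36 were called higher. ZNF30 went from 11.4, 9.53 and 10.9 CPM to 39.5, 38 and 36.6 CPM (log2 fold change 1.84, SE 0.092, adjusted p = 1.3e-08), and ZNF296 and ZNF845 rose 4.51-fold and 3.55-fold. ZNF575, ZNF333 and ZNF43 fell by 1.57, 0.86 and 0.59 on the log2 scale. Genes of this family share sequence, and reads could be split between members. Of 17 snoRNA host genes, 10 rose and 3 fell. GAS5, a growth arrest transcript, rose from 82.9, 76.9 and 87 CPM to 170, 168 and 199 CPM, SNHG12 rose 3.23-fold and SNHG3 fell 1.91-fold. Of 16 long noncoding RNAs tested, 5 rose and 5 fell, beside the 28% and 27% of all genes tested that rose and fell. The epidermal transcript TINCR was 9.74-fold higher, from 2.6, 1.78 and 2.47 CPM to 24.4, 20 and 22.3 CPM.

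**Figure D2:**
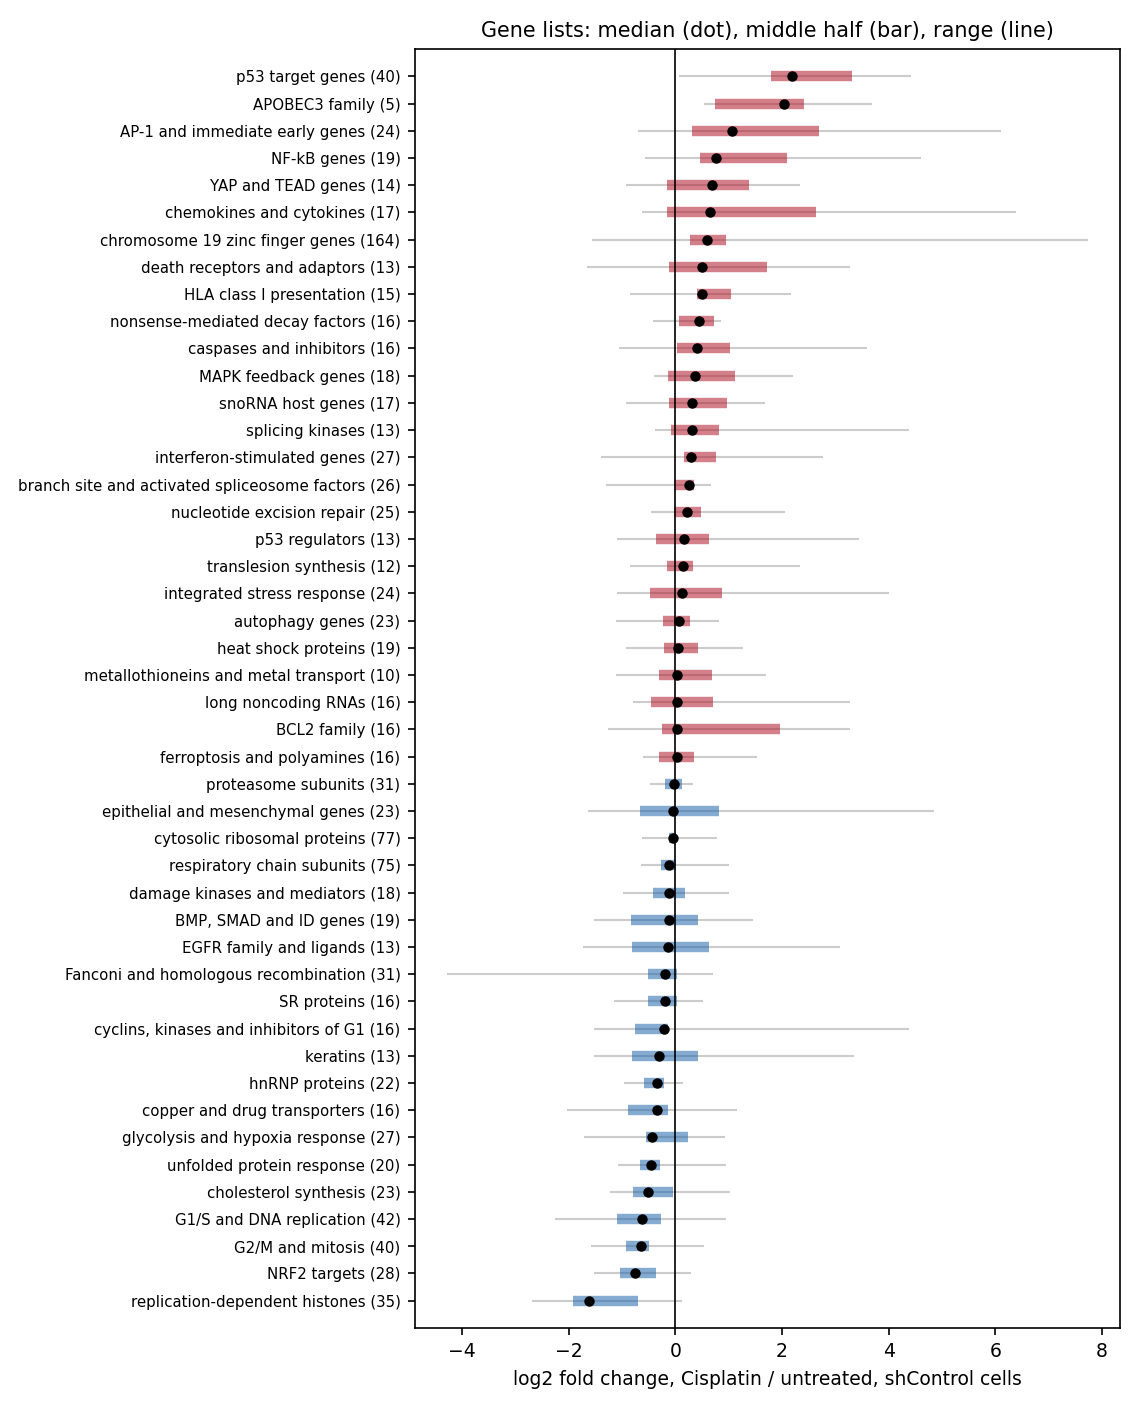
Log2 fold change, Cisplatin against untreated in shControl cells, over the tested members of the 46 gene lists, whose number is in brackets. Dots are medians, bars the interquartile range and lines the full range, whose upper ends include genes near 0 CPM in untreated cells. Medians run from −1.61 for replication-dependent histones to 2.19 for p53 target genes, beside −0.005 for all genes.

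The size of a gene went with the direction of its change. Span, the distance from the first to the last annotated base, was known for 13446 of the genes tested. Among 2628 genes under 10 kb the median log2 fold change was 0.14, with 13.9% called higher and 3.35% called lower. In the class from 10 to 30 kb the median was 0.16, from 30 to 100 kb 0.00, and from 100 to 300 kb −0.41. Among 521 genes of 300 kb and over it was −2.05, with 2.3% called higher and 74.1% called lower, and 483 of the 521 had a log2 fold change below 0. The difference between the medians of the longest and the shortest class was −2.11, −2.15 and −1.83 in the 3 numbered pairs of libraries, each a treated against an untreated one, so it had the same sign and a like size in all. Without both replicate 2 libraries the longest class had a median of −1.97. Since these are bulk libraries scaled to equal totals, a rise of short genes and a fall of long ones in each cell cannot be told apart from a fall of long genes alone.

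Exceptions were few at either end. Of the longest class 12 genes were called higher. ASTN2, a neuronal membrane protein gene of 990 kb (chr9:119187504-120177348), rose from 8.15, 6.5 and 8.25 CPM to 22.4, 22.9 and 21.8 CPM (log2 fold change 1.55, SE 0.13, adjusted p = 7.8e-07), MAST4, a kinase gene of 573 kb, rose 2.32-fold, and FBN2, a fibrillin gene of 401 kb, 2.06-fold. These were the 3 with a mean of at least 10 CPM over all 6 libraries. C2orf88, of 324 kb and chosen after its values were seen, rose most among those with over 10 CPM after Cisplatin, from 0.166, 0.586 and 0.106 CPM to 12.3, 15.3 and 12.7 CPM (log2 fold change 5.52, SE 0.39). In the shortest class 88 genes were called lower. PAQR4, of 4.25 kb, went from 48.6, 41.8 and 49.5 CPM to 10.9, 11.8 and 10.1 CPM (log2 fold change −2.10, SE 0.092, adjusted p = 5e-09), and SAPCD2 and TMEM37 fell 4.3-fold and 4.09-fold. INHBB and OLFML3, also named there, had overlapping groups, since replicate 2 was several-fold below the other libraries in both conditions. Of the p53 targets whose span was known, which left out DDB2 and TIGAR, 4 spanned 100 to 300 kb and the others less. Several falls named by list above were in long genes: ATG7 (285 kb), ABCC4 (282 kb), HIPK2 (231 kb), ME1 (221 kb), ATF6 (198 kb) and BCL2 (197 kb). Others, such as MCM6 (36.8 kb) and PLK1 (12.7 kb), were not, and REV3L (185 kb) and ATR (130 kb) rose. Whether the falls of list members went with span or with the pathway was not tested.

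**Figure D3:**
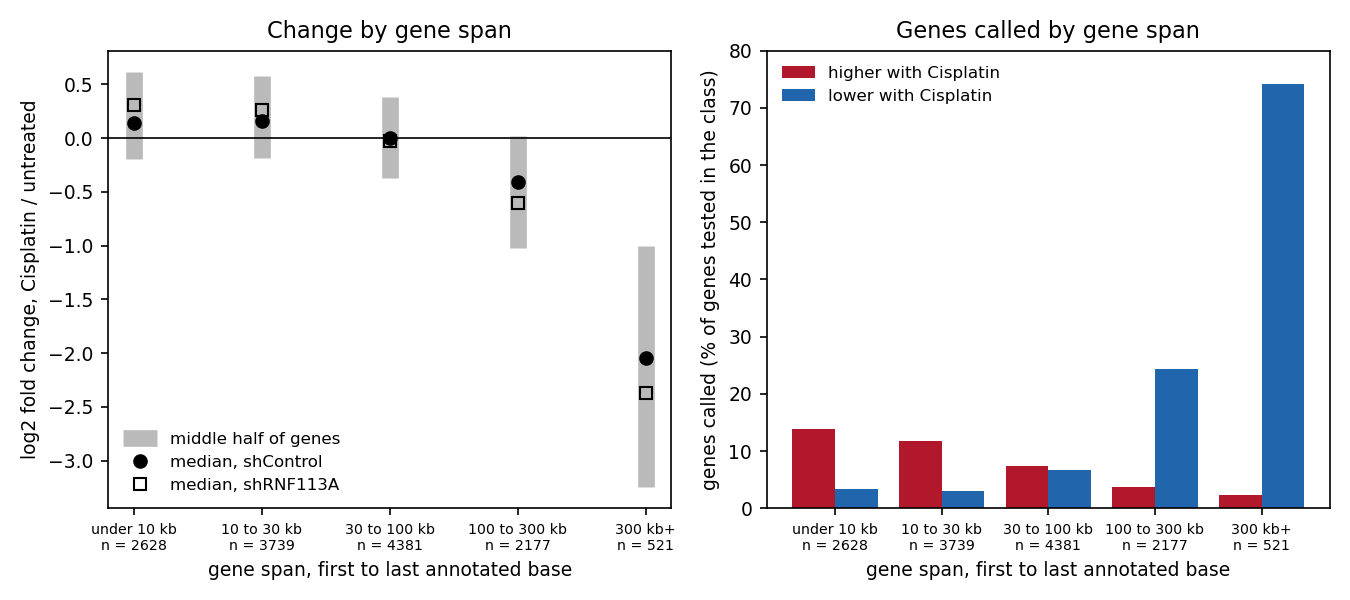
Left, log2 fold change with Cisplatin in 5 classes of gene span, as the median in shControl cells (filled circles), the interquartile range (grey bars) and the median in cells with the shRNA against RNF113A (open squares). Right, percent of the genes of each class called higher or lower in shControl cells, which passes from 13.9% and 3.35% under 10 kb to 2.3% and 74.1% at 300 kb and over.

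Genes for splicing factors were counted by protein class, beside 28% of all genes tested that rose and 27% that fell at the adjusted p. Of 22 hnRNP genes, 14 fell at the adjusted p and the other 8 did not pass (median −0.34), with HNRNPA2B1, an RNA-binding protein of the nucleus, at 2004, 1651 and 1768 CPM against 945, 885 and 940 CPM (log2 fold change −0.97, SE 0.079, adjusted p = 7.7e-07). Of 16 SR protein genes, which promote exon recognition, 7 fell and 2 rose, and SRSF2 was 2.22-fold lower (391, 330 and 386 CPM against 161, 155 and 183 CPM). TRA2B and SRSF1 fell 1.87-fold and 1.65-fold. Of 13 splicing kinases tested 6 rose and 1 fell, with DYRK3 3.1-fold and DYRK1B 2.6-fold higher. Among 26 factors of the branch site and the activated spliceosome, to which RNF113A belongs, 11 rose and 1 fell (median 0.25). SF3A3 and BCAS2 rose 1.59-fold each, and CWC27, a gene of 250 kb, fell 2.46-fold. RNF113A rose from 20.3, 19.5 and 19.8 CPM to 31.5, 28.9 and 27.7 CPM without overlap (log2 fold change 0.57, SE 0.091, adjusted p = 0.00021). Of 16 nonsense-mediated decay factors 9 rose, UPF1 most, by 1.81-fold, and MAGOHB fell 1.33-fold.

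The splicing of transcripts was compared for the 3 untreated and 3 treated libraries by the inclusion level, the share in percent of the form that includes an exon or intron. For this level the reads of each form were divided by its effective length, while the test used the undivided reads. Reads of the inclusion form were those on its junctions and those within the region unique to it. The order of the libraries in these tables is not named, so they are called a, b and c. Events were called where the adjusted p was under 0.05 and the mean levels differed by at least 20 percentage points. Skipped exons were called at 0.0541% of 68403 events, retained introns at 0.073% of 4111, alternative 5′ splice sites at 0.13% of 3854, alternative 3′ splice sites at 0.0708% of 5653 and mutually exclusive exons at 0.083% of 14456. At the adjusted p alone, 186 skipped exons differed (0.272%), 137 of them with higher and 49 with lower inclusion. The shares at the adjusted p alone were 0.486% for retained introns, 0.856% and 0.442% for alternative 5′ and 3′ splice sites and 1.36% for mutually exclusive exons.

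The following splice sites bound the skipped exons whose large changes passed without any 1 of the 6 libraries, and those of 3 genes in which a site or exon competes with another. They were read from the hg19 genome on the strand of the gene, 5′ to 3′. The 3′ splice sites hold 20 intronic and 3 exonic bases with the terminal AG of the intron in capitals, and the 5′ splice sites 3 exonic and 6 intronic bases with the GT in capitals.
PKM exon chr15:72513509-72513625 (minus strand), 3′ splice site: tttccttaatccttgtgcAGctc
PKM exon, 5′ splice site: aagGTatga
WNK1 exon chr12:988739-989197 (plus strand), 3′ splice site: gtttttctttaccttcccAGctt
WNK1 exon, 5′ splice site: cagGTattg
RPL22L1 (chromosome 3, minus strand), upstream 3′ splice site of the long form: aacctaagctctattcctAGggt
RPL22L1, downstream 3′ splice site of the short form: ttttttctgttttaaaatAGgag
SREK1 (chromosome 5, plus strand), upstream 3′ splice site of the long form: tgatatttgtgcattattAGatg
SREK1, downstream 3′ splice site of the short form: gatgttctgtgtgctattAGtga
ATE1 first exon chr10:123659381-123659509 (minus strand), 3′ splice site: ttttttaactgcttctgaAGgtg
ATE1 first exon, 5′ splice site: cagGTcagc
ATE1 second exon chr10:123658356-123658484 (minus strand), 3′ splice site: gtattttccttgctctgaAGgtg
ATE1 second exon, 5′ splice site: gagGTattg

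A 117-nt exon of PKM, the pyruvate kinase of glycolysis, had the largest change among called skipped exons with separate groups and at least 20 reads in every library. It was included at 26.1%, 37.9% and 41% in untreated cells and at 91.2%, 84% and 81.7% after Cisplatin. The groups lay more than 40 points apart at their nearest and the mean difference was 50.7 points (adjusted p = 1.8e-11, edgeR's quasi-likelihood test on reads of the 2 forms). These forms held 79, 91 and 110 reads in untreated and 340, 370 and 394 in treated libraries. Expression of PKM itself fell, with a log2 fold change of −0.43 (adjusted p = 0.00367, edgeR's quasi-likelihood test). The levels thus describe these 2 forms, and what share of all PKM transcripts they make up was not tested. The exon lies nearer to the start of the gene than the exon pair that separates the M1 and M2 isoforms, and 4 annotated transcripts hold it, as coding sequence in 2 and as untranslated sequence in 2. A 459-nt exon of WNK1, a kinase that regulates ion transport, went from 21%, 13.2% and 21.6% to 63.9%, 43.8% and 53.5% (difference 35.1 points, adjusted p = 9.1e-08). Its length is a multiple of 3, and 6 annotated transcripts hold it, 4 of them as coding sequence. PPIP5K2, an inositol phosphate kinase, gained 34.1 points for a 174-nt exon (adjusted p = 0.00084), and FAM126A lost 33.4 points for a 215-nt exon, from 95.5%, 82.8% and 86.4% to 59.3%, 48.7% and 56.4% (adjusted p = 0.00086). SS18L1 and LINC00511 differed by −38 and 31.7 points, and kept their calls with only 1 and 2 of the 6 libraries left out in turn.

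Sites within exons and introns changed as well. In RPL22L1, which encodes a paralog of a ribosomal protein, the upstream of the 2 sites printed above gives a long form with 67 nt more. The long form stood at 7.81%, 10.8% and 6.77% in untreated cells and at 26.2%, 44.4% and 30.3% after Cisplatin (difference 25.2 points, adjusted p = 5.9e-17). The 67 nt are not a multiple of 3. Expression of RPL22L1 itself had a log2 fold change of −0.99. In SREK1, an SR-related splicing regulator, the long form stood at 100%, 83.6% and 100% without and at 45.6%, 18.1% and 72.2% with Cisplatin. The spread between treated libraries thus exceeded 50 points (difference −49.3 points, adjusted p = 0.00094). Reads anywhere in the 2744 nt that the upstream site adds counted toward the long form, so the level is not use of that site alone. In UPP1, a uridine phosphorylase, the long form, which ends at the downstream of its competing 5′ splice sites, stood at 63.6%, 67.8% and 58.4% without Cisplatin. With Cisplatin it stood at 40.9%, 37.8% and 35.6%. With 1 of the 6 libraries left out in turn, SREK1 kept its call in 3 and UPP1 in 2 of 6 analyses.

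The 3 retained introns that were called had lower retention, while of the 20 that differed at the adjusted p alone 10 were higher and 10 lower. An intron of 324 nt in the snoRNA host gene SNHG12 went from 78.4%, 61.4% and 57.9% to 41.6%, 23.2% and 44.1% (difference −29.6 points, adjusted p = 0.00231), while the level of SNHG12 rose, as given above. The introns of TP73-AS1 and CANT1 went down by 26.5 and 20.9 points, but kept their calls in only 1 and 2 of the 6 analyses with 1 library left out. Among mutually exclusive exons, the first of 2 exons of ATE1, an arginyltransferase, went from 13.2%, 27.9% and 13.3% to 39.4%, 56.7% and 40.3% (difference 27.3 points, adjusted p = 3.5e-07). Both exons measure 129 nt. In SEPT2, a septin, the first exon went from 89.8%, 92.6% and 83.3% to 53.6%, 45.7% and 54.4% (difference −37.3 points, adjusted p = 5.8e-08). Over all called skipped exons, 11 of 36 distinct ones (30.6%) had a length that was a multiple of 3, beside 40.8% of the 52515 distinct exons in the table, and all 36 were bounded by AG and GT.

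**Figure D4:**
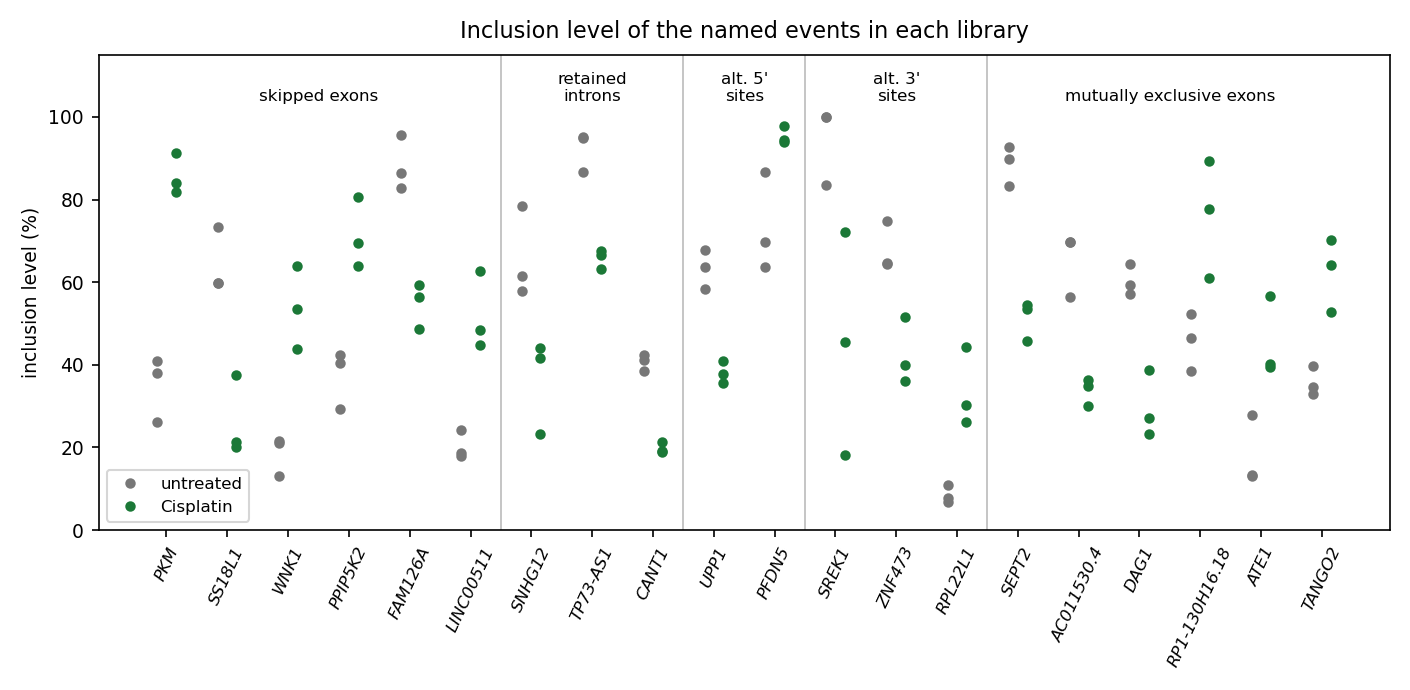
Inclusion level in percent of 20 events in each of 3 untreated (grey) and 3 Cisplatin-treated (green) shControl libraries, in order of category. Shown are called events with at least 20 reads in every library, picked for groups that do not overlap. PKM passes from 26.1% to 41% in untreated to 81.7% to 91.2% in treated libraries.

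Reads in introns were taken as the reads on the whole gene less those on its exons, for 11092 protein-coding genes. They made up 4.8%, 4.31% and 4.71% of the gene reads in untreated libraries and 5.45%, 4.63% and 7.15% after Cisplatin, where replicate 2 lay within the untreated range. The share was higher in the treated library of each of the 3 numbered pairs. The means were 4.61% ± 0.257 and 5.74% ± 1.28 (SD, n = 3), and a two-sided exact permutation test that ignores the numbers gave p = 0.3, but 3 against 3 libraries cannot go below 0.10, so it cannot decide whether the shares differed. Gene by gene, the ratio of intronic to exonic reads differed for 945 genes (8.52%) at an adjusted p under 0.05, 905 (8.16%) higher and 40 (0.361%) lower. With the replicate numbers as a block 2202 genes were called, 2051 higher and 151 lower, and without both replicate 2 libraries 1984, of which 1922 were higher. The direction was thus the same in each, and the number was not stable.

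Long genes made up most of the higher ratios. Of the 905 genes, 556 spanned at least 100 kb, and 58.6% of the 379 genes tested of 300 kb and over had a higher ratio, beside 1.81% of 1709 genes under 10 kb. In the longest class the median change of exonic reads was −1.84 and that of intronic reads −0.43 (log2), so both were lower and the exonic reads more so, whereas under 10 kb they were 0.08 and 0.30. Of the 905 genes 432 were also called lower in expression and 18 called higher, beside 10.6% and 9.16% of all genes tested for expression. Exonic reads enter both measures, so the 2 kinds of call are not independent. DTD1, which encodes an enzyme that removes D-amino acids from tRNA (chr20:18568537-18744561), had 2.05%, 1.94% and 1.63% intronic reads untreated and 18.4%, 17% and 17% with Cisplatin. Its ratio was 11.1-fold higher (log2 3.48, SE 0.26, adjusted p = 3.2e-08). EXOC6B, another exocyst gene, went from 2.92%, 4.28% and 3.82% to 25.6%, 25.3% and 29.5%, and ADK, the adenosine kinase, from 5.93%, 5.76% and 6.38% to 33.4%, 37.9% and 35.4%. AGAP1 and PRKCA had 7.67-fold and 6.57-fold higher ratios. Among genes with at least 50 intronic and 100 exonic reads in every library and groups that did not overlap, of which 15 were called lower, the largest decreases were in HOMEZ, BACH1, COG8, PURA and ZNF250, whose ratios went down by 1.42 to 1.04 on the log2 scale. BACH1, a repressor of antioxidant genes, had 13.2%, 10.7% and 16.3% intronic reads without and 5.81%, 4.63% and 6.65% with Cisplatin.

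**Figure D5:**
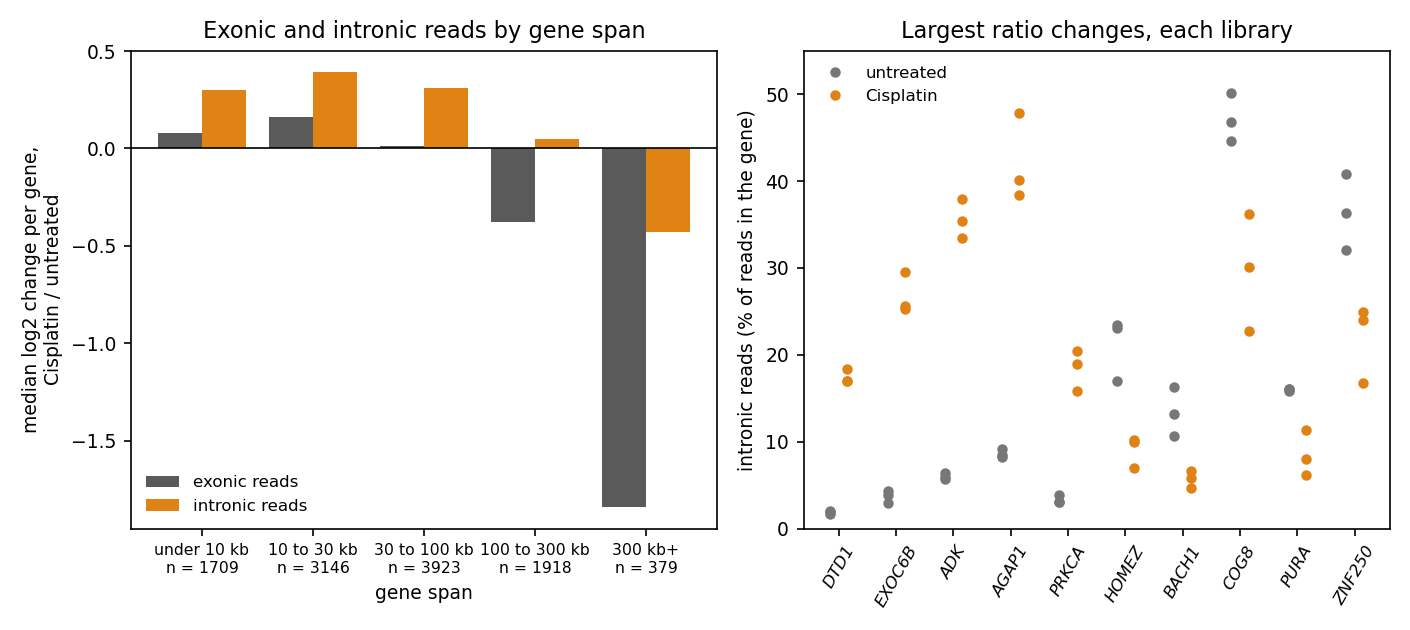
Left, median log2 change per gene of exonic (grey) and intronic (orange) reads with Cisplatin in 5 classes of gene span, from 0.08 and 0.30 under 10 kb to −1.84 and −0.43 at 300 kb and over. Right, intronic reads as percent of the reads of a gene in each untreated (grey) and Cisplatin-treated (orange) library, for the 5 genes with the largest rise and the 5 with the largest fall of the ratio among called genes with non-overlapping groups and at least 50 intronic and 100 exonic reads in every library. In the first 5 genes all treated libraries lie above all untreated ones, and in the last 5 below.

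Further genes that the study names were examined beside these. NUPR1, a stress-induced chromatin protein, went from 11.8, 13.8 and 13.4 CPM to 75.7, 75.6 and 71.5 CPM (log2 fold change 2.51, SE 0.097, adjusted p = 1.9e-09), and SAT1, the enzyme that acetylates polyamines, from 175, 286 and 172 CPM to 473, 782 and 563 CPM (log2 fold change 1.52, SE 0.21). TRIM29 rose 2.33-fold and SF3B2 1.25-fold. For SF3B1, RNF8, NOXA1 and GFRA1 the log2 fold changes of −0.05, 0.18, 0.34 and −0.43 did not pass (adjusted p = 0.883, 0.122, 0.0683 and 0.279). CEACAM5 fell with overlapping groups (11.7, 22.7 and 5.75 CPM against 4.97, 7.6 and 2.66 CPM, adjusted p = 0.0192).

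Whether depletion of RNF113A altered this response was tested as the difference between the effects of Cisplatin in the 2 arms. Of all genes tested 4.25% had such a difference at adjusted p under 0.05, and of the 3037 genes called in control cells 203 (6.68%) had one. In the same direction in both arms were 2960 of the 3037 genes. With a block for the replicate numbers 687 of the called genes differed, so the count depends on that choice. For the p53 targets the median in depleted cells was 1.92, and 13 of the 40 had a difference. In the gene span classes the medians in depleted cells ran from 0.31 under 10 kb to −2.37 at 300 kb and over.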

How the data were processed

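RNA of A549 cells was sequenced in 12 libraries made with a stranded mRNA kit, and the 6 shControl libraries were compared here. The authors removed rRNA, tRNA and mitochondrial reads, aligned the rest to hg19 with STAR (2.5.2b) and deposited raw counts per gene, of which those on the strand of the gene were used. The authors also deposited raw HTSeq counts on exons and on whole genes for Gencode release 19 protein-coding genes, whose difference was taken as intronic reads, and rMATS tables with reads of each splice form per library on Ensembl GRCh37. The p-values and differences in the rMATS tables, which are the comparisons of the authors, were not used.

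Expression was tested with edgeR (4.0.16, R 4.3.3) by quasi-likelihood on all 12 libraries with a term per group, TMM scaling, filterByExpr and Benjamini-Hochberg adjustment over all genes, and genes were called at adjusted p under 0.05 and 2-fold. The difference between arms was a contrast of the same model. Splice forms, and intronic against exonic reads, were tested by the same method with a term per library, with at least 10 exonic and 1 intronic reads in each of the 6 libraries. DESeq2 (1.42.0), other scalings, filters, thresholds and the omission of single libraries were tried as alternatives, and the code was tested on simulated data. Figures were drawn with matplotlib 3.10.9, and hg19 sequences read with pysam 0.24.0. The spread between replicate libraries exceeded counting error (chi-square per degree of freedom of at least 8.17), so errors are those between libraries.

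Members, the 46 gene lists and tests were chosen with earlier results of these data known. The genes to be named were the 15 with the largest log2 change in each direction among called genes (at least 10 CPM on average, groups apart, each numbered pair in the same direction), the 8 with the largest gain and loss in CPM, up to 3 per list and direction plus up to 3 key members, the genes that the study names, and up to 5 per direction in the shortest and longest span classes. Events were named up to 6 per splicing category, 1 per gene, among called events with groups apart and at least 20 reads in every library. Intronic ratios were named 5 per direction. FUCA1, TNFRSF10C and CCNG1 were chosen after their values were seen. A few genes that this rule names are not reported here. Same-numbered libraries deviated together (r = 0.635, 0.733 and 0.479 over 9779 genes between untreated and treated replicates 1, 2 and 3). Replicates 1 and 3 did so across numbers as well (r = 0.592 for untreated 1 with treated 3, 0.537 for untreated 3 with treated 1). Replicate 2 deviated opposite to the others (r from −0.696 to −0.577). The values thus set replicate 2 apart and do not tell pairs 1 and 3 from each other. The numbers come from the labels, and a replicate block was run as an alternative.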

Additional observations from a re-analysis of the deposited data

Results flagged for a closer look

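The genes named here whose response to Cisplatin differed between the shRNA arms are given as the effect in RNF113A-depleted cells minus that in control cells (log2, edgeR's quasi-likelihood interaction test, adjusted p under 0.05), and no cause was tested. Among p53 targets and their regulators the difference was −1.25 for CDKN1A, −1.11 for MDM2, −0.99 for GADD45A, −0.96 for PPM1D, −0.71 for TP53I3, −0.53 for TNFRSF10B and −0.45 for DDB2, so each rose less in depleted cells. The stress genes DDIT3 and NUPR1 differed by −1.81 and −1.80, and the NF-kB gene ICAM1, below 0.25 CPM in untreated control cells, by −2.02. GRHL3 differed most, by −4.00, followed by GPC6 at 2.56 and HIST1H3H at 2.29. The histone genes HIST1H2AC and HIST1H2BD differed by 1.54 and 1.52. Of the noncoding RNAs, TINCR differed by −1.96, GAS5 by −0.48, SNHG10 by 1.06 and LINC-PINT by 0.84. Smaller effects in depleted cells were also seen for ASTN2 (−1.10), REV3L (−0.77), SLC30A1 (−0.68), RETSAT (−0.60), GINS4 (−0.47) and SDHA (−0.43), and a further decrease for FANCC (−0.83). Positive differences were seen for SNAI1 (1.38), HSPB8 (1.08), CDKN2C (0.64), PAQR4 (0.63) and SRSF2 (0.52).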

How the results depend on the processing

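The count of called genes, 3037, ranged from 2038 with at least 10 counts in every library to 3393 with no filter, and was 5302 at a 1.5-fold threshold. The difference in medians between the longest and shortest genes, −2.19, was −1.81 with at least 10 counts in every library, −1.99 without a filter and −1.69 for genes of at least 10 CPM. Of the called genes 203 differed between arms, 687 with the 12-library replicate block, 369 with DESeq2, 676 without both replicate 2 libraries (an alternative chosen after seeing the data), and 116 to 421 with 1 control library left out, 116 without untreated replicate 3, 135 without Cisplatin replicate 1 and 421 without untreated replicate 2. The intronic ratio was called for 945 genes, for 451 with at least 50 intronic reads per library, for 2202 with the replicate block, for 1984 without both replicate 2 libraries and for 529 to 3491 with 1 library left out. The lowest were without Cisplatin replicate 1, with 560 and 627 without untreated replicates 2 and 3, and the highest was without Cisplatin replicate 2. The difference in the intronic share, 1.14 points, was 0.437 to 1.69. With a replicate block 3174 genes were called in 12 libraries, beside 3037 without it, and 2949 in the 6 control libraries, beside 2673, and the difference in medians by span was −2.16.

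With a difference of 10 in place of 20 points, 81 in place of 37 skipped exons were called, 10 in place of 3 retained introns, 10 in place of 5 alternative 5′ sites, 13 in place of 4 alternative 3′ sites and 47 in place of 12 mutually exclusive exons, and with at least 20 reads in every library 3 alternative 5′ sites. With 1 library left out, the counts were 8 to 17, 0 to 9, 0 to 2, 1 to 2 and 7 to 12 in the same order, by edgeR on 2 against 3 libraries, so the number of splicing calls rests on all 6. No paired analysis was possible because the libraries within the splicing tables carry no replicate number.

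SF3B1 (−0.05) turned to 0.058 with scaling to library size and to 0.212 and 0.183 without Cisplatin replicate 2 and untreated replicate 1, with −0.276 as the lowest value, and passed in none of these. Of 4184 values for the 280 named genes, 4055 kept direction and side of the threshold, as did 390 of 432 for the differences between arms, 92 of 100 for intronic ratios and 110 of 160 for splicing events. The causes of these changes were not tested.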
